A study of Mus musculus with 8 samples.

Results

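Fibulins and the proteins of elastic fibers were examined as a group of 10 genes (Efemp1, Efemp2, Fbln1, Fbln2, Fbln5, Fbn1, Eln, Mfap4, Mfap5 and Emilin1) among the 25834 genes counted in mouse hippocampus. The group was assembled around Efemp1 because Efemp1 was lower in SAP97-cKO animals, and the other members were added as genes of the same family or fiber. The genotype values of all 10 genes, and the number of them past the threshold of the fit over all genes, are therefore a description and no evidence for the group. SAP97-cKO animals carried Nestin-cre+/- and SAP97fl/fl, so that the floxed SAP97 gene (Dlg1) is removed by Cre under the Nestin promoter, which is active in the progenitors of neurons and glia. Control animals were littermates described as Nes-cre+/-, SAP97fl/fl or wild-type, and the sources used here say neither which of these each control library was nor how old the sequenced mice were. There were 4 control and 4 SAP97-cKO libraries, each from the hippocampus of a single male.

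Elastic fibers are built from an elastin core laid on a scaffold of fibrillin microfibrils. Fibulins are secreted glycoproteins of tandem calcium-binding EGF modules that link elastin, fibrillin and basement membranes, and lysyl oxidases crosslink the assembled elastin. In the brain these genes are known mainly from the meninges and the walls of blood vessels rather than from neurons.

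Library totals ran from 37388177 to 37416649 counts in controls and from 37391907 to 37426572 counts in SAP97-cKO animals, so depth was nearly equal. Mean Dlg1 was 4338 ± 336 normalized counts among controls and 2393 ± 470 among SAP97-cKO animals (SD, n = 4 each). These counts are of the whole gene, and reads on its separate exons were not examined here. The paper reports a much larger fall in reads on an exon of this gene, and less of its protein in the hippocampus. The whole-gene counts therefore do not measure how complete the removal was. Markers of hippocampal neurons were abundant in every library, led by Camk2a, Snap25 and Neurod6. The libraries were unequal in RNA of other cells. The summed level of 10 choroid plexus epithelium markers, led by Ttr, ran from 173 to 6821 CPM (counts scaled to a common library total) in controls and from 99.2 to 2349 CPM in SAP97-cKO animals, lowest in replicate 4 of each genotype. In SAP97-cKO replicate 4 the summed markers of meningeal fibroblasts, vascular smooth muscle, pericytes and endothelium were also the lowest of the 8 libraries. In whole tissue, fewer cells of a type and less RNA per cell cannot be told apart.

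Efemp1 (fibulin-3, a short fibulin that is secreted by fibroblasts and epithelia) is ENSMUSG00000020467 (chromosome 11 from 28853204 to 28926743, plus strand, GRCm38 as for all members), with 11 exons in its longest transcript. After TMM scaling it had 568, 686, 518 and 605 normalized counts in control replicates 1 to 4. In SAP97-cKO replicates 1 to 4 it had 369, 407, 357 and 293 normalized counts. Each SAP97-cKO library was below each control library, and the means were 594 ± 70.7 and 356 ± 47.5 normalized counts (SD, n = 4 each), the second being 60.0% of the first. On the log2 scale, Efemp1 differed (SAP97-cKO over control) by -0.74 with a standard error of 0.12. Efemp1 was past the FDR of 0.25 in edgeR's quasi-likelihood fit over all genes. The paper also lists Efemp1 among its changed genes, a list made from these libraries with limma-voom. Since the group was set up around the lower Efemp1, this call is no independent evidence for Efemp1. With each library left out in turn its log2 fold change stayed between -0.81 and -0.65. The call rested on 3 libraries. Leaving out control replicate 2, SAP97-cKO replicate 3 or SAP97-cKO replicate 4 ended it, and edgeR then called 0 of all genes tested (1403, 1259 and 1167 at an unadjusted p under 0.05).

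The other short fibulins were Efemp2 and Fbln5, both required for elastic fiber assembly. Efemp2 (fibulin-4, ENSMUSG00000024909, chromosome 19 from 5473954 to 5482517, plus strand) had 287, 465, 428 and 378 normalized counts in control replicates 1 to 4, and 252, 362, 330 and 273 in SAP97-cKO replicates 1 to 4. The groups overlapped, and the lowest control library, replicate 1, lay below 2 of the SAP97-cKO libraries. The log2 fold change of Efemp2 was -0.36 (standard error 0.17). Efemp2 shares 4.57% of its exon sequence with the opposite-strand gene Mus81 (595 normalized counts in controls and 568 in SAP97-cKO animals), and the sources used here do not say whether reads were counted by strand. Fbln5 (fibulin-5, which binds elastin and integrins; ENSMUSG00000021186, chromosome 12 from 101746565 to 101819055, minus strand) had 218, 308, 264 and 214 normalized counts in control replicates 1 to 4, and 146, 214, 201 and 124 in SAP97-cKO replicates 1 to 4. The ranges met only at the lowest control library, replicate 4, and the highest SAP97-cKO library, replicate 2. The log2 fold change of Fbln5 was -0.55 (standard error 0.19), and it moved to -0.42 without SAP97-cKO replicate 4. Summed over the 3 short fibulins, controls held 28.7 to 39.0 CPM and SAP97-cKO animals 18.4 to 26.3 CPM.

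Fbln1 and Fbln2 are the long fibulins, which carry anaphylatoxin-like modules and lie in basement membranes and vessel walls. Fbln1 (ENSMUSG00000006369, chromosome 15 from 85205949 to 85286535, plus strand) was the member with the most counts. It had 630, 762, 467 and 687 normalized counts in control replicates 1 to 4 and 394, 483, 479 and 397 in SAP97-cKO replicates 1 to 4. Control replicate 3 fell inside the SAP97-cKO range while the other 3 controls lay well above it. The log2 fold change of Fbln1 was -0.54 (standard error 0.15), and it was -0.65 without control replicate 3. Fbln2 (ENSMUSG00000064080, chromosome 6 from 91212455 to 91272540, plus strand) had 225, 197, 169 and 163 normalized counts in control replicates 1 to 4 and 174, 148, 202 and 178 in SAP97-cKO replicates 1 to 4. The groups of Fbln2 overlapped over most of their range. Its log2 fold change was -0.10 (standard error 0.15), and -0.01 without control replicate 1.

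The start regions of the 4 fibulins of the group with the lowest ratios of SAP97-cKO to control are shown so that the sequence before each gene can be read beside its counts. Each is the 250 bases before the first RefSeq start, written 5′ to 3′ on the gene's strand from RefSeq (GRCm38.p6), with capitals marking any of the 4 sequences searched on both strands, namely the TATA box TATAAA, the CCAAT box CCAAT, the GC box GGGCGG and the E-box CACGTG.
Efemp1 (chr11:28852955-28853204, plus strand): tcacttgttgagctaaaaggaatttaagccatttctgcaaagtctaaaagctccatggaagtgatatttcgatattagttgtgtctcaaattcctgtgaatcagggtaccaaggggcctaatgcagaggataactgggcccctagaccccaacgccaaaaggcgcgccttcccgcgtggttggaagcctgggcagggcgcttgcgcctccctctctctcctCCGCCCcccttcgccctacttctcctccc
Efemp2 (chr19:5473696-5473945, plus strand): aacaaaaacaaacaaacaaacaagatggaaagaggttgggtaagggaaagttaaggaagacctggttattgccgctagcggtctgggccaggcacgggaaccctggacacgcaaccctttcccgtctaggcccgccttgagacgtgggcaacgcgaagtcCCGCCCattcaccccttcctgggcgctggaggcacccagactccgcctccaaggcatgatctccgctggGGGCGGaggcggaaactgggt
Fbln5 (chr12:101819120-101819369, minus strand): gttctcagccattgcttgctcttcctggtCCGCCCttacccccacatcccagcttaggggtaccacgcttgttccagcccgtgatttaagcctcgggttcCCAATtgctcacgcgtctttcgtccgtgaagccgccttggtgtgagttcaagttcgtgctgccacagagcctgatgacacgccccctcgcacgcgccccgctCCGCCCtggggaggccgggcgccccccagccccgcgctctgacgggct
Fbln1 (chr15:85205699-85205948, plus strand): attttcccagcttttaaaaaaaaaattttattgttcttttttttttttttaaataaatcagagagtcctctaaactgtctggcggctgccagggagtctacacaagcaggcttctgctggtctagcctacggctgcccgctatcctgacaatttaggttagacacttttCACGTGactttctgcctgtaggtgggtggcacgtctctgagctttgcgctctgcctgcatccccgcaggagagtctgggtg
Efemp1 held 1 GC box, read on the opposite strand, Efemp2 held 2 GC boxes, Fbln5 held 2 GC boxes and 1 CCAAT box, and Fbln1 held 1 E-box. No motif was in all 4 windows shown, and none of these held the letters TATAAA. Among all 32851 RefSeq start regions of the same length, 32.7% held a GC box, 33.8% a CCAAT box, 12.4% a TATA box and 6.02% an E-box. GC content was 53.6% for Efemp1, 59.2% for Efemp2, 65.2% for Fbln5 and 46.4% for Fbln1, beside a median of 52.4% over all start regions. Start regions were matched for 7 of the 10 members, Eln, Mfap4 and Mfap5 being without an entry. Efemp2, Fbln5 and Fbln1 have further RefSeq starts, whose sequences are not shown. The window before the further Fbln1 start held a GC box and an E-box, at 62.4% GC. The absence of a GC box and the low GC content of Fbln1 therefore depended on the start taken. The further Fbln5 window held none of the 4 motifs, at 49.6% GC, and each further Efemp2 window held 5 GC boxes.

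Among the microfibril proteins, Fbn1 and Mfap4 differed between the genotypes by less than their spread, and Mfap5 had too few reads to compare. Fbn1 (fibrillin-1, the structural backbone of the microfibril; ENSMUSG00000027204, chromosome 2 from 125300594 to 125507993, minus strand) had 399, 425, 327 and 244 normalized counts in control replicates 1 to 4 and 419, 316, 462 and 359 in SAP97-cKO replicates 1 to 4. It was the single tested member with a fold change above 0, at 0.16 on the log2 scale (standard error 0.18), and its groups overlapped. Without control replicate 4 this value was 0.02. The opposite-strand gene Gm9913 covers 20.1% of the exon sequence of Fbn1 and had 1.23 ± 1.47 normalized counts (SD, n = 4) in controls. Mfap4 (a fibrinogen-domain protein that binds elastin and fibrillin; ENSMUSG00000042436, chromosome 11 from 61485431 to 61488900, plus strand) had 161, 117, 114 and 119 normalized counts in control replicates 1 to 4 and 122, 78.6, 147 and 118 in SAP97-cKO replicates 1 to 4. The spread of Mfap4 within each group was larger than the difference of the means, with a log2 fold change of -0.13 (standard error 0.20) that turned to 0.02 without SAP97-cKO replicate 2. The opposite-strand gene Mapk7 (639 normalized counts in controls and 720 in SAP97-cKO animals) covers 4.63% of the exon sequence of Mfap4. Mfap5 (microfibril-associated glycoprotein 2; ENSMUSG00000030116, chromosome 6 from 122505845 to 122529290, plus strand) was near the limit of detection, with 9, 4, 9 and 6 reads in control replicates 1 to 4 and 1, 10, 4 and 6 reads in SAP97-cKO replicates 1 to 4. Mfap5 did not pass the filter on low counts and was not tested. The ratio of its reads was 0.774 with an exact 95% interval of 0.418 to 1.41, which covers counting error only.

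Eln and Emilin1 represent the elastic core and its interface with microfibrils. Eln (tropoelastin; ENSMUSG00000029675, chromosome 5 from 134702593 to 134747323, minus strand) had 372, 317, 258 and 249 normalized counts in control replicates 1 to 4. In SAP97-cKO replicates 1 to 4 it had 233, 218, 233 and 205, and no SAP97-cKO library reached the lowest control. The log2 fold change of Eln was -0.43 (standard error 0.14), and it was -0.30 without control replicate 1. The opposite-strand gene Gm30003 covers 3.3% of the exon sequence of Eln, and its own counts are not given here. Emilin1 (an elastin microfibril interface protein that also restrains TGF-beta processing; ENSMUSG00000029163, chromosome 5 from 30913402 to 30921277, plus strand) had 169, 163, 112 and 117 normalized counts in control replicates 1 to 4 and 84.5, 85.6, 82.1 and 50.9 in SAP97-cKO replicates 1 to 4. All 4 SAP97-cKO libraries lay below all 4 controls, and 3 of them fell within a few counts of each other. The difference on the log2 scale, -0.89 (standard error 0.21), was the lowest of the members, and it was -0.73 without SAP97-cKO replicate 4.

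**Figure D1:**
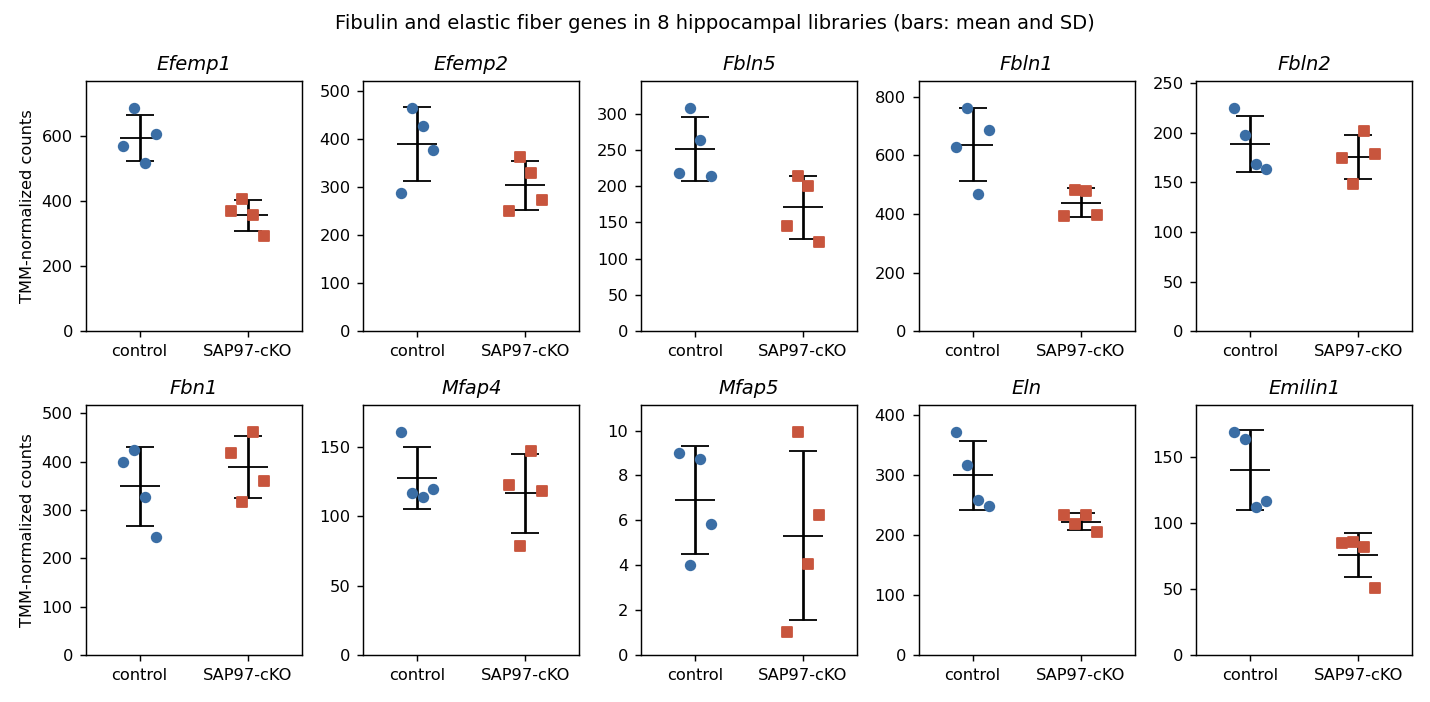
TMM-normalized counts (vertical axis, from 0, with its own scale for each gene) of the 10 genes in control (blue circles) and SAP97-cKO (red squares) libraries, 4 per group, with horizontal bars for the mean and whiskers for the SD. The groups stand apart for Efemp1, Eln and Emilin1, touch or overlap for Fbln1, Fbln5 and Efemp2, and lie over each other for Fbln2, Fbn1, Mfap4 and Mfap5.

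Of the 9 members tested, 1 (Efemp1) was past the FDR of 0.25 in edgeR, where 0.283% of all 16251 genes tested were called lower and 0.0123% higher. None of the other 8 was called, and their median log2 fold change was -0.39, beside -0.01 over all genes tested. Of the 9, 8 had a log2 fold change below 0, as had 52.7% of all genes tested. The groups did not overlap for 3 members (Efemp1, Eln and Emilin1), all lower, which was the case for 3.47% of all genes tested in that direction, and for 2.78% in the other. Since the group was chosen on this contrast, these counts describe it and are not evidence of a shift. The number of members called depended on the tool and on single libraries. DESeq2 called 5 (Efemp1, Eln, Emilin1, Fbln1 and Fbln5), where it called 3.62% of all genes lower, and edgeR called 5 without control replicate 1 (Efemp1, Efemp2, Emilin1, Fbln1 and Fbln5), where it called 5.83% of all genes lower. Limma-voom called Efemp1 alone, and 0.308% of all genes. Without replicate 4 of both genotypes, a choice made after seeing the choroid plexus levels, edgeR called 0 members and 0 of all genes tested (1323 at an unadjusted p under 0.05), and the log2 fold change of Efemp1 was -0.64.

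Per kilobase of exon, Efemp1 was the most abundant member in control hippocampus, at 7.80 ± 0.93 CPM per kb (SD, n = 4), and its 4 values did not overlap those of the next gene. Fbln1 followed at 3.90 ± 0.77 and Efemp2 at 2.75 ± 0.55 CPM per kb, and these neighbors overlapped, as did Efemp2 and Mfap4 (1.78 ± 0.31 CPM per kb). Next came Eln (0.987 ± 0.19), Fbln5 (0.971 ± 0.17), Fbln2 (0.792 ± 0.12), Fbn1 (0.769 ± 0.18) and Emilin1 (0.759 ± 0.16 CPM per kb), 5 genes whose neighbors in this order were not separated by their spread. Mfap5 was far lower, at 0.0513 ± 0.018 CPM per kb. In comparison, the median of all genes tested was 4.01 CPM per kb, and the mean of Efemp1 lay above it, that of Fbln1 lay within 1 SD of it, and those of the other 8 members lay below it. In SAP97-cKO animals Efemp1 remained the most abundant member, at 4.68 ± 0.62 CPM per kb, while Fbn1 (0.857 ± 0.14 CPM per kb) stood above Eln (0.734 ± 0.045 CPM per kb). These levels depend on the length used. With the longest transcript in place of all annotated exons, Eln was at 2.08 CPM per kb and Fbln1 at 4.65 CPM per kb, above that median, which was not recomputed on this length.

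The spread between libraries was wider for most members than for the typical gene. This spread includes counting noise, which is relatively larger for genes with fewer counts, and no comparison was made with genes of like count. Among controls the coefficient of variation of normalized counts was 11.9% for Efemp1 and 15.1% to 23.3% for the other 8 tested members, beside a median of 12.3% over all genes tested. In SAP97-cKO animals it was lowest for Eln (6.20%) and highest for Fbln5 (25.3%), beside a median of 9.72%.

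**Figure D2:**
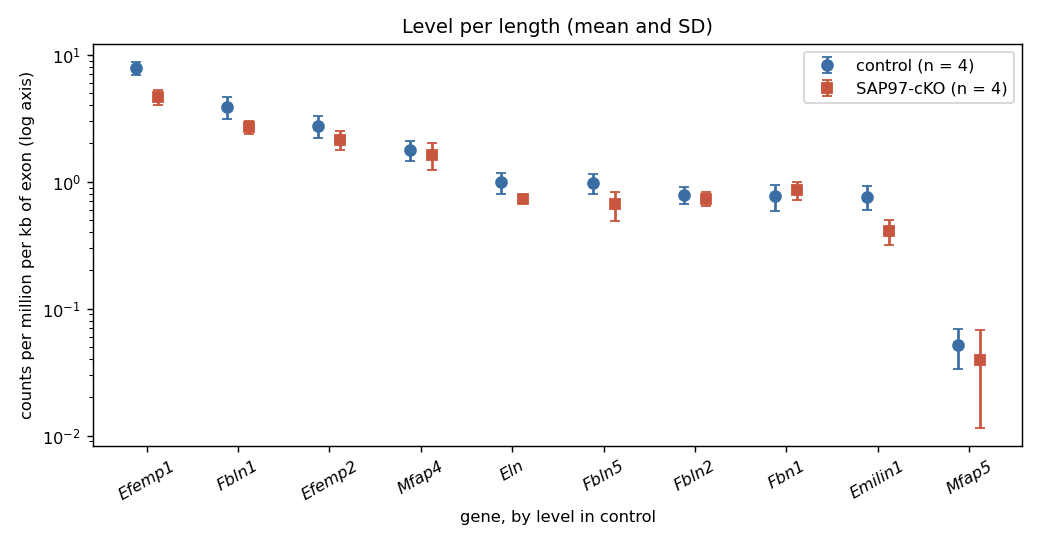
Mean level per length of the 10 genes in CPM per kilobase of exon (vertical log axis), ordered by the control level, for control (blue circles) and SAP97-cKO (red squares) animals with the SD (n = 4 each). Efemp1 leads in both genotypes, at 7.80 and 4.68, and Mfap5 is lowest, at 0.0513 and 0.0396.

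Differences between mice of the same genotype do not hold the contrast that chose the group, so each gene's log2 CPM was also taken as its deviation from its genotype mean. These deviations follow 8 libraries with 2 means removed, and the libraries share their dissection and depth, so the correlations are a description. Efemp1 deviated together with Emilin1 (r = 0.76; 0.51 to 0.91 with each library left out), Fbln1 (r = 0.76; 0.65 to 0.84) and Fbln5 (r = 0.66; 0.40 to 0.84). It was less related to Efemp2 (r = 0.43) and Eln (r = 0.28), and r was 0.09 with Fbn1, -0.14 with Fbln2 and -0.37 with Mfap4. Efemp2 and Fbln5 deviated together (r = 0.81). Among Fbln2, Fbn1, Mfap4 and Eln, singled out after the values were seen, the 6 pairs had r from 0.51 to 0.87. These genes were not separate from the rest, since Emilin1 deviated with Eln (r = 0.79) and Fbn1 (r = 0.54) as well as with Efemp1. Over all 36 pairs of tested members the median r was 0.30, and 27 pairs were above 0. The median r of Efemp1 with 13988 genes at a mean log2 CPM of at least 0 was 0.00.

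Among those 13988 genes, the 5 whose deviations were most like those of Efemp1 were Rnf144b (r = 0.99), Pawr (r = 0.99), Aldh1a2 (r = 0.98), Asgr1 (r = 0.98) and Ptgds (r = 0.98). Aldh1a2, a retinoic acid synthesis enzyme, and Ptgds, a prostaglandin D2 synthase, were both on the list of meningeal fibroblast markers. With a library left out, r of these 5 stayed between 0.971 and 0.995, but other genes then took their place, and as few as 1 of the 5 stayed among the top 5. The members nearest to Efemp1 in this order were Emilin1 (place 315) and Fbln1 (place 338).

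Marker genes of other cells moved with these deviations. Mean log2 CPM of 14 meningeal fibroblast markers, with genotype means removed, followed Efemp1 (r = 0.92), Fbln5 (r = 0.85), Emilin1 (r = 0.81) and Fbln1 (r = 0.74), and less so Efemp2 (r = 0.54), Eln (r = 0.40), Fbn1 (r = 0.23), Fbln2 (r = 0.01) and Mfap4 (r = -0.31). For the 7 of these markers outside the study's own list of changed genes, r was 0.76 with Efemp1, 0.94 with Fbln5, 0.66 with Emilin1, 0.65 with Fbln1 and 0.72 with Efemp2. Emilin1 also followed the markers of vascular smooth muscle (r = 0.81), pericytes (r = 0.71), endothelium (r = 0.61) and choroid plexus (r = 0.60). Fbln5 followed the choroid plexus markers (r = 0.91). Efemp1 was at 0.56 with the pericyte, 0.55 with the choroid plexus and 0.50 with the smooth muscle markers. Single genes were therefore not tied to single lists. Mfap4 and Fbln2 followed the hippocampal neuron markers (r = 0.86 and 0.76), while Efemp2 (r = -0.70), Fbln5 (r = -0.62) and Efemp1 (r = -0.55) ran against them.

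**Figure D3:**
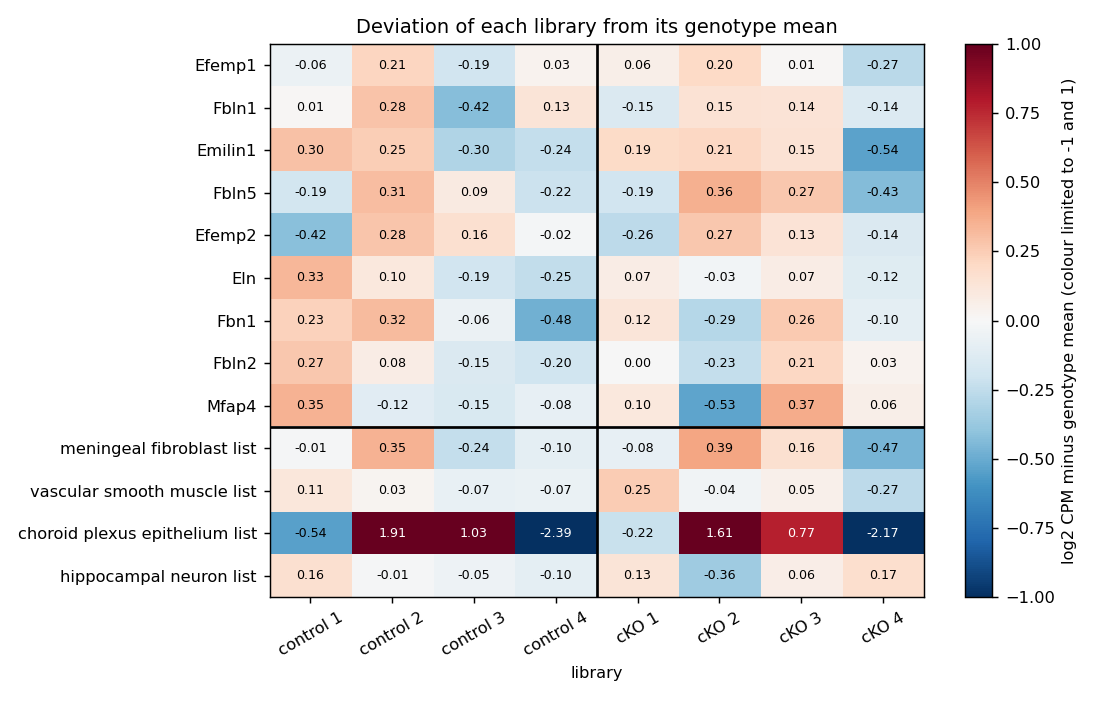
Deviation of log2 CPM from the genotype mean in each of 8 libraries (columns) for the 9 tested members and, below the line, the mean of 4 marker lists (rows), with red above and blue below the mean (color limited to -1 and 1) and the value in each cell. Efemp1, Emilin1, Fbln5 and the meningeal fibroblast list are above the mean in control 2 and SAP97-cKO 2 and lowest among SAP97-cKO libraries in replicate 4, while the choroid plexus list varies over a far wider range.

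The same markers also differed between the genotypes beside the members. The 14 meningeal fibroblast markers, led by Ptgds, Igfbp2 and Igf2, summed to 1008 to 1862 CPM in controls and to 468 to 884 CPM in SAP97-cKO animals, without overlap. Most of these sums was Ptgds, with means of 36010 normalized counts in controls and 15600 in SAP97-cKO animals. The separation of the sums is therefore mainly that of Ptgds, and no sum without Ptgds was taken. Mean log2 CPM of the 14, in which each marker counts alike, ran from 4.13 to 4.71 in controls. In SAP97-cKO animals it ran from 2.98 to 3.84. Taken singly, the groups did not overlap for 10 of the 14, all lower, beside 3.47% of all genes tested. All 14 had a log2 fold change below 0, from -1.58 (Slc22a6) to -0.01 (Dcn), with a median of -0.90. Of the 14, 7 passed the FDR of 0.25 in edgeR, all of them lower, where 0.283% of all genes tested were called lower. These 7 are also on the study's own list of changed genes, which was made from these libraries, so they are not independent of it. Of the 7 others edgeR called 0 and DESeq2 4, with 4 lower at an unadjusted p under 0.05, and their median log2 fold change was -0.68. The groups did not overlap for 3 of these 7 others, all lower. In the fits that left out control replicate 2, SAP97-cKO replicate 3 or SAP97-cKO replicate 4, edgeR called 0 of all 14. No marker of this list was at 0 in any library. The 8 vascular smooth muscle markers, led by Myl9, Acta2 and Tagln, summed to 74.2 to 89.7 CPM in controls and to 49.0 to 75.2 CPM in SAP97-cKO animals. The 7 pericyte markers (Vtn, Rgs5 and Pdgfrb foremost) gave 181 to 198 CPM and 115 to 187 CPM, and the 8 endothelial markers (Cldn5, Ly6c1 and Abcb1a foremost) 216 to 250 CPM and 163 to 281 CPM. The 7 astrocyte markers, led by Aldoc, Gfap and S100b, overlapped between the genotypes. A log2 fold change below 0 was not particular to the meningeal list. Every smooth muscle, pericyte, endothelial and choroid plexus marker was also below 0, with medians of -0.42, -0.22, -0.18 and -1.42. The sums of the 10 choroid plexus markers overlapped between the genotypes. Of the astrocyte markers 3 were below and 4 above 0, and of the neuron markers 1 was below and 7 above. None of the smooth muscle, pericyte, endothelial, choroid plexus, astrocyte or neuron markers passed the FDR of 0.25 in edgeR or limma-voom. At an unadjusted p under 0.05 there were 4 lower smooth muscle markers (DESeq2 called 3), 1 lower pericyte marker (DESeq2 called 1), 2 higher astrocyte markers (DESeq2 called 1) and 3 higher neuron markers (DESeq2 called 2). Of all genes tested, 7.01% were lower and 4.73% higher at that p, and DESeq2 called 3.62% lower and 2.74% higher. The part of these cells in the values of the fibulins and elastic fiber genes was not tested.

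The wider elastic fiber pathway was taken from a list of 51 genes, of which 49 were in the table and 44 were tested. None passed the FDR of 0.25 in edgeR, where 0.295% of all genes did. At an unadjusted p under 0.05 there were 8 lower and 2 higher genes, beside 7.01% and 4.73% of all genes tested. Limma-voom called 0 of them, and DESeq2 called 6 lower (Emilin2, Fbln7, Itgb5, Lox, Loxl1 and Loxl2) and 1 higher (Adamts17), where it called 3.62% of all genes lower and 2.74% higher. With control replicate 1 left out edgeR called 7 lower and 2 higher, where it called 5.83% of all genes lower and 4.34% higher. With SAP97-cKO replicate 1 left out it called 5 lower, where it called 2.73% of all genes lower, and with any other single library left out it called 0. The median log2 fold change of the 44 was -0.11. The groups did not overlap for 3 lower genes (Loxl2, Fbln7 and Emilin2) and 2 higher genes (Mfap3l and Adamts17). Over all genes tested this was the case for 3.47% lower and 2.78% higher.

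The lysyl oxidases, which crosslink elastin and collagen, included Loxl2 and Lox, the lowest log2 fold changes among the 44 pathway genes tested. The log2 fold change was -1.38 (standard error 0.39) for Loxl2, -0.95 (0.31) for Lox, -0.50 (0.19) for Loxl1 and -0.14 (0.17) for Loxl3, and Loxl4 had too few reads to be tested. None of the 4 was called by edgeR (adjusted p of 0.331 to 0.746). Loxl1, the most abundant of them at 2.04 ± 0.37 CPM per kb in controls (SD, n = 4), had 251 ± 45.8 normalized counts in controls and 178 ± 38.4 in SAP97-cKO animals. Fbln7, a further fibulin, was at -0.71 (standard error 0.22, edgeR adjusted p = 0.347). The hemicentins Hmcn1 and Hmcn2, giant members of the fibulin family, were at 0.08 (0.27) and -0.15 (0.51). Emilin2, a relative of Emilin1, was at -0.61 (standard error 0.17, edgeR adjusted p = 0.316), and Mmrn2, an endothelial multimerin, at -0.37 (0.18).

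The remaining roles had median log2 fold changes from -0.27 to 0.06. The further microfibril genes had log2 fold changes of 0.10 (Fbn2), -0.25 (Mfap2), -0.05 (Mfap3) and 0.14 (Mfap3l), and Mfap3l was the most abundant at 12.1 ± 0.68 CPM per kb. The 7 latent TGF-beta binding proteins and TGF-beta ligands, which are held in the matrix by fibrillin, had a median of -0.08, with Tgfb2 the most abundant (11.7 ± 2.4 CPM per kb). The 8 ADAMTS and ADAMTS-like genes divided into 4 below and 4 above 0, with a median of 0.06 and Thsd4 the most abundant. The 9 tested integrin and elastin receptor genes, led by Itgb1, had a median of -0.02, and the 5 tested elastin-degrading proteases, led by the microglial cathepsin Ctss, had a median of -0.26. The elastin chaperone Fkbp10 was at -0.12 (standard error 0.13) and the copper transporter Atp7a at -0.42 (0.26).

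**Figure D4:**
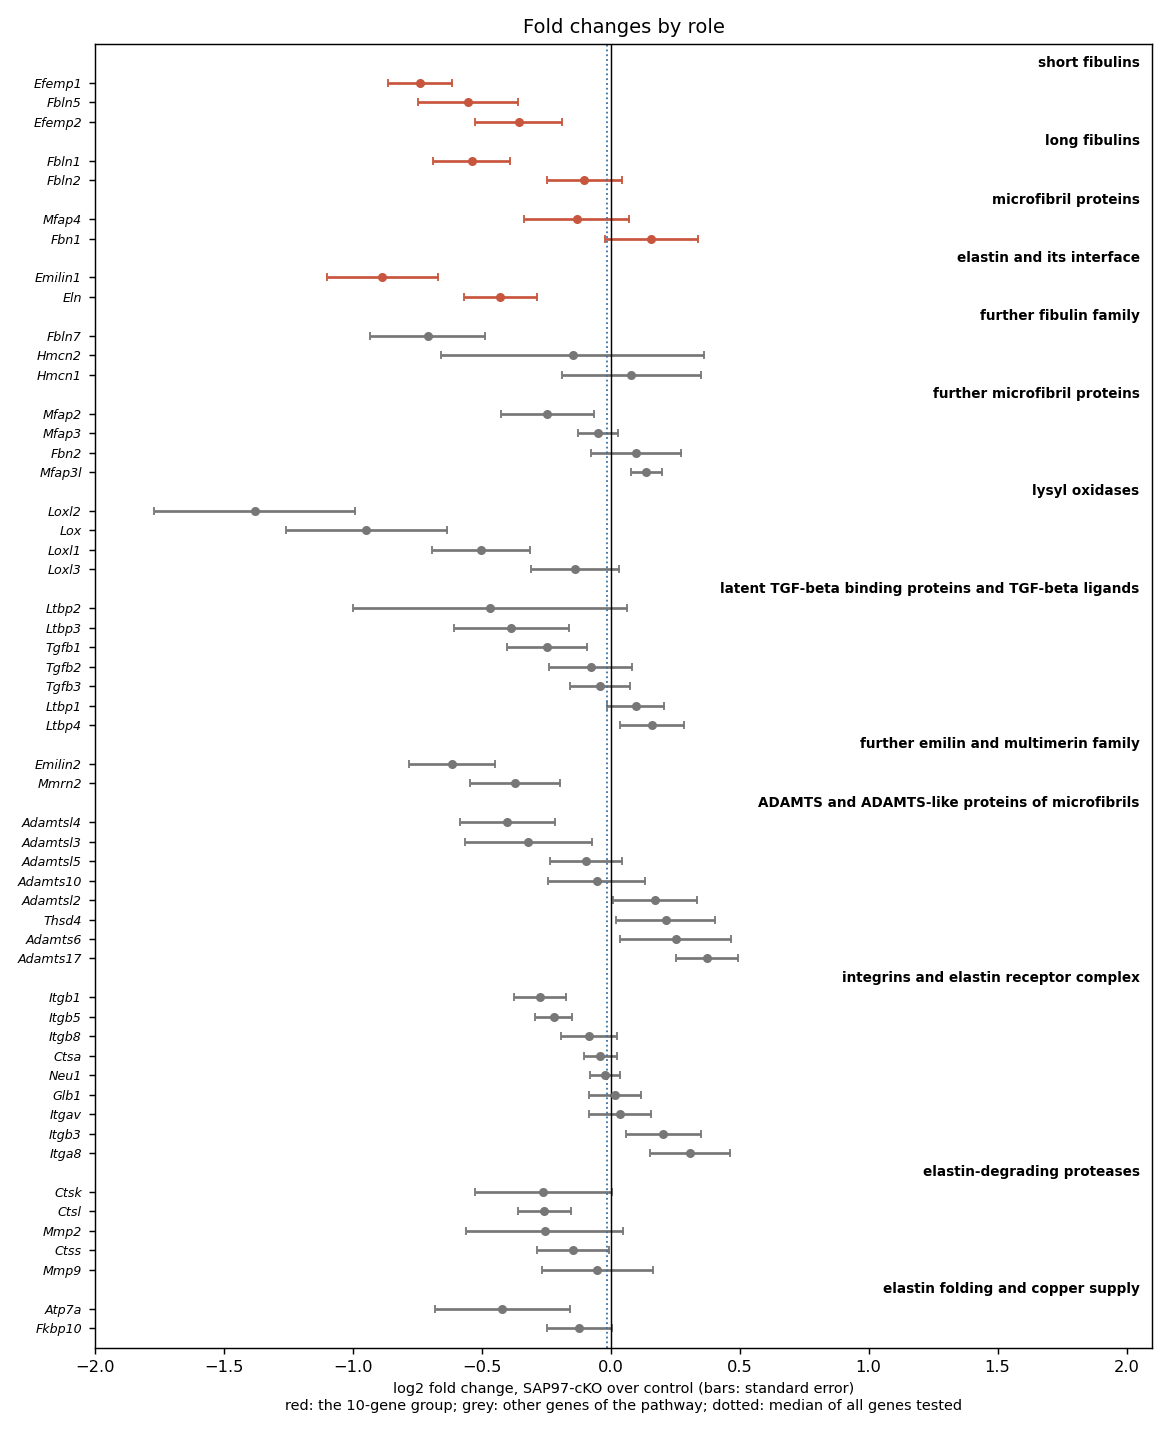
Log2 fold change of SAP97-cKO over control (horizontal axis) with its standard error for the 9 tested members (red) and 44 tested pathway genes (gray), grouped by role, with a solid line at 0 and a dotted line at the median of all genes tested (-0.01). The fibulins Efemp1, Fbln5, Fbln1 and Fbln7, the emilins and the lysyl oxidases Lox and Loxl2 lie to the left, and the integrin and ADAMTS genes spread on both sides of 0.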

How the data were processed

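RNA of 8 hippocampi, 1 library per mouse, was aligned by the authors with STAR 2.5.3a (mm10, GRCm38.p5). PORT then removed ribosomal and mitochondrial reads, equalized depth by resampling and counted reads per Ensembl gene. The deposited whole-number counts were used. The deposited table also holds the authors' own fold changes, p-values and q-values, which were not used. The members and gene lists were chosen with earlier results of these data known.

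Genes were filtered with filterByExpr (minimum count 10, minimum total 15), which left 16251, scaled by TMM (factors 0.964 to 1.03) and tested by quasi-likelihood in edgeR 4.0.16 (R 4.3.3) at the study's threshold, an FDR (Benjamini-Hochberg over all genes tested) of 0.25. Alternatives were limma 3.58.1 (voom), DESeq2 1.42.0, other scaling and filters, an FDR of 0.05, a replicate block and each library left out. In simulated counts over the 16251 genes for this comparison, 81.5% of 200 genes changed 2-fold were found, and 27.2% of calls were false. The simulated noise was drawn for each gene on its own, without library differences shared by many genes. These shares therefore need not hold for the real libraries or for smaller changes. Normalized counts are counts divided by the TMM-scaled library size, times its mean. Levels per length used the union of exons in GENCODE M21 (25696 of 25834 identifiers matched), and deviations used log2 CPM with 0.5 added to each count. Each pair of libraries differed beyond counting noise (chi-square divided by genes, 9.76 to 73.4). Standard errors were taken from the log2 fold change and its quasi-likelihood F value.

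Genes named were all 10 members, Dlg1, pathway genes past the threshold and the most abundant of each role, the 3 most abundant markers of each list and the 5 genes most like Efemp1. The lysyl oxidases, Fbln7, Hmcn1, Hmcn2, Emilin2, Fbn2, Mfap2, Mfap3, Atp7a and the genes called by DESeq2 were singled out after their values were seen. Plots were drawn with matplotlib 3.10.9.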

Additional observations from a re-analysis of the deposited data

Results flagged for a closer look

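A library stood apart from the other 3 of its group in 2 of the 20 sets of 4 normalized counts examined (10 members in both genotypes), where chance gives about 1 in 20. Emilin1 was at 50.86 in SAP97-cKO replicate 4, below 82.1 to 85.6 in the other SAP97-cKO libraries. Without that library the log2 fold change of Emilin1 was -0.73 in place of -0.89. Mfap4 was at 161.1 in control replicate 1, above 114 to 119 in the other controls.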

How the results depend on the processing

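The log2 fold changes of the 9 tested members stayed within 1 SD of the spread between replicates in all 144 values from 16 alternatives, and changed sign for Mfap4 alone. Leaving out 1 of 4 libraries can hardly move a group mean that far, and the other alternatives refit the same counts. This limit could therefore hardly be missed and is no evidence of stability. The counts of calls were not stable. The number of members called was 5 with DESeq2, 2 without scaling, 2 without the filter, 0 at an FDR of 0.05 and 0 to 5 with 1 library left out, with 0 when control replicate 2, SAP97-cKO replicate 3 or SAP97-cKO replicate 4 was absent. Without replicate 4 of both genotypes it was 0. For the pathway genes the number was 7 with DESeq2 and 0 to 9 with 1 library left out (control replicate 1 absent, 9, and SAP97-cKO replicate 1 absent, 5). Over all genes tested, 48 were called, and the number was 1033 with DESeq2, 95 without scaling, 104 without the filter, 0 at an FDR of 0.05 (1907 at an unadjusted p under 0.05), 0 to 1675 with 1 library left out and 0 without replicate 4 of both genotypes. In a fit with a replicate block, edgeR called 3 members (Efemp1, Emilin1 and Fbln5), 2 pathway genes and 256 of all genes. The numbers were not taken to pair the libraries, since the correlation of same-numbered deviations ran from -0.06 to 0.26 and was not above 0.1 for every number. As a hint from the data that goes the other way, 3 of 4 controls correlated best with their own number. Of the 5 genes most like Efemp1, 2 stayed among the top 5 with Spearman's correlation and 1 to 5 with 1 library left out. The cause of these changes was not tested. At this depth Mfap5 gave too few reads for a comparison.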
